A study of Mus musculus with 10 samples.

Results

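The tumour necrosis factor (TNF) ligand and receptor superfamilies were examined in the fenestrated endothelium of liver sinusoids (LSEC), isolated from mice on a CDAA diet and on a control diet. The members were chosen by gene symbol: every symbol made of Tnfsf or Tnfrsf, a number and at most 1 letter, plus Tnf, Lta, Ltb, Ltbr, Fas, Fasl, Cd40, Cd40lg, Cd27 and Cd70. That gave 40 genes, each with 1 probe set, of 24704 named genes on the array, 16 of them ligands and 24 receptors. The rule uses symbols and no measured value, but it was set with earlier results of these data known. Tnfsf12, the ligand of Tnfrsf12a, was not analysed here.

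Female C57BL/6N mice, 10 weeks old when feeding began, received for 10 weeks either a diet labelled CDAA, with 31% of calories as fat and 1% cholesterol, or a control diet labelled Std. No sample's own labels name a genetic change, but the series' design text speaks of Gata4-LSEC-KO mice and their controls, so the genotype of the 10 pools is not settled by the labels. For every array, 3 mice gave 1 pool, enriched for CD146 on magnetic beads, and 5 CDAA pools were compared with 5 Std pools. A label for treatment duration reads 10 days, but titles and growth protocol give 10 weeks, which is used here.

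TNF superfamily ligands are mostly membrane proteins that act as trimers, and some are shed into soluble form. Their receptors recruit TRAF adaptors and switch on NF-kB and MAP kinase signalling, and those with a death domain can also start apoptosis. In the liver, Kupffer cells and recruited macrophages are known sources of TNF, and sinusoidal endothelium answers it with adhesion molecules and chemokines.

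Values were log2 signals per probe set, and every array had the same median of 3.89. No detection call came with the values, so signals under that median were not shown to exceed background, and a fold drawn from them can be too small. Over all genes, arrays of the CDAA diet correlated with each other at Pearson r of 0.972 to 0.991, those of Std at 0.980 to 0.992, and arrays of different diets at 0.947 to 0.982. The mean of 10 LSEC markers was 11.72 to 11.84 in Std and 10.26 to 11.26 in CDAA, so the labelled cell type was present in every pool. Markers of other cells moved with the diet: 8 of 9 recruited macrophage and monocyte markers rose, as did 7 of 7 cholangiocyte and 5 of 9 stellate cell and fibroblast markers, whereas 9 of 10 LSEC and 7 of 10 pan-endothelial markers fell. CDAA 1 and CDAA 3 had the lowest pan-endothelial means of the CDAA arrays, 10.63 and 10.23 against 10.99 to 11.31, in a graded series without a clear break. In such a bulk isolate, fewer cells of a type and less RNA per cell cannot be told apart, which holds for every change below.

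The promoter windows of 6 members that changed are shown first, to place the motifs of NF-kB and AP-1 that lie near their starts. Each is the 250 bases before the transcript start given by RefSeq for GRCm38.p6, written 5′ to 3′ on the strand of the gene. In the windows of Ltb, Tnfrsf9 and Fas, capitals mark a match on either strand to the NF-kB motif, spelled GGG, any 2 bases and TTTCC, or to the AP-1 motif TGANTCA. The match in Ltb is on the strand opposite to the gene, where it reads GGGACTTTCC. Tnfrsf9 had more than 1 window, and the one shown has 1 match to each motif, which do not overlap.
Ltb promoter (chr17:35194257-35194506, plus strand): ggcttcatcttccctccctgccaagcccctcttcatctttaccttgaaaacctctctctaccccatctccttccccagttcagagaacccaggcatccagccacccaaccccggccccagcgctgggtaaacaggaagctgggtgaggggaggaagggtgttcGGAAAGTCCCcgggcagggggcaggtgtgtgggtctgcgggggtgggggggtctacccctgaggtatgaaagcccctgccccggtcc
Tnfrsf9 promoter (chr4:150927749-150927998, plus strand): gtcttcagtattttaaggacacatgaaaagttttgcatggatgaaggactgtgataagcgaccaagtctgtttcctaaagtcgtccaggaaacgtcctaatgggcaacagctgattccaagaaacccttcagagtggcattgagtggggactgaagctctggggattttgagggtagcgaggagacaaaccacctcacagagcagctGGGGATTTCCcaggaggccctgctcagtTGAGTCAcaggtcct
Fas promoter (chr19:34290409-34290658, plus strand): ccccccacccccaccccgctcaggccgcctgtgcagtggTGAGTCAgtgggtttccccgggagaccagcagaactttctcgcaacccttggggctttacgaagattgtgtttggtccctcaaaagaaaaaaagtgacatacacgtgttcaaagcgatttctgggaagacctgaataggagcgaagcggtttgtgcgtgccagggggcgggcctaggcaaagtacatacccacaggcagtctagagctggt

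The receptors Tnfrsf1a, Ltbr and Cd27, which are near neighbours in the genome and all fell, held neither motif in this window. In their sequences capitals mark CpG dinucleotides, of which Ltbr had 18, Tnfrsf1a 9 and Cd27 5, against a median of 6 over 32851 windows.
Tnfrsf1a promoter (chr6:125349473-125349722, plus strand): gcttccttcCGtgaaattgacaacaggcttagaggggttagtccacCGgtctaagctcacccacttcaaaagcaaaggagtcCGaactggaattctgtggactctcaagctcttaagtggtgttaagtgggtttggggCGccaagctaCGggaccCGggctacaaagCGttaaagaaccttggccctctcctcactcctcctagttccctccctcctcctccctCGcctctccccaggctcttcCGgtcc
Ltbr promoter (chr6:125313886-125314135, minus strand): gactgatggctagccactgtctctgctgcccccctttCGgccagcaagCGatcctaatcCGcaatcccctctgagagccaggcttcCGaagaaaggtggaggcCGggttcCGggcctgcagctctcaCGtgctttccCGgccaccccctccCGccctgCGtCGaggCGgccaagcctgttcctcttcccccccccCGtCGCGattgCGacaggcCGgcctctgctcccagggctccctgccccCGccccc
Cd27 promoter (chr6:125237028-125237277, minus strand): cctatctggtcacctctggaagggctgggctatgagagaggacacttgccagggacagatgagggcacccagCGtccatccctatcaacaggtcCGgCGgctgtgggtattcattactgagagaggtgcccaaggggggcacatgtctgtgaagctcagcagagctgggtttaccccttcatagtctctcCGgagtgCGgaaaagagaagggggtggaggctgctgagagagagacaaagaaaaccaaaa

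Of the 40 members, 31 had 1 or more windows, 35 in all. The NF-kB motif was in the windows of 2 of 6 members that rose (Ltb and Tnfrsf9), in 0 of 5 that fell and in 1 of 20 that did not pass (Tnfrsf25). Counted by window, that was 2 of 8, 0 of 5 and 1 of 22, against 1.41% of all 32851 windows. The window of Tnfrsf9 that is not shown held neither motif. The AP-1 motif lay upstream of Tnfrsf9, which rose, of Fas, which fell, and of Tnfrsf8, Tnfsf13, Tnfsf13b and Tnfsf14, which did not pass. By window that was 1 of 8, 1 of 5 and 4 of 22, against 6.75% of all windows. A match is a string of letters and not evidence of binding.

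The diet question was which members were higher or lower in CDAA. "Rose" and "fell" are used below of genes whose CDAA minus Std difference had a limma p under 0.05 after Benjamini-Hochberg adjustment over all 24704 genes, and all differences are in log2 signal. Among the members 7 rose and 7 fell (17.5% each), and 26 did not pass. Over all genes 7.49% rose and 9.13% fell. The median difference was 0.03 over the 40 members and -0.02 over all genes. Values of CDAA and Std did not overlap for 6 members with all CDAA arrays higher and 6 with all lower, against 6.16% and 7.73% of all genes. Members and other genes differ in signal level: 23 members had a mean over all arrays above the array median, of which 6 rose and 6 fell (26.1% each), whereas 13.0% and 16.8% of such genes rose and fell overall. Without CDAA 1 and CDAA 3, 6 members rose and 5 fell, each of which had the same call with all arrays. Over the fits that left out 1 array, 6 to 9 rose and 5 to 9 fell.

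Receptors, 24 of the 40 members, made up 12 of the 14 that changed. Of 24 receptors 6 rose and 6 fell (25% each), and of 16 ligands Ltb rose and Tnfsf10 fell (6.25% each). Over all genes 7.49% rose and 9.13% fell. Above the array median on average were 17 receptors, of which 5 rose and 5 fell (29.4% each). Of 6 such ligands 1 rose and 1 fell (16.7% each), against 13.0% and 16.8% of all such genes. Signal of 10 ligands and 7 receptors lay at or below the array median on average. Of these 17 genes Tnfrsf9 rose and Cd27 fell (5.88% each), against 7.49% and 9.13% of all genes. Shares for all genes at or below the array median were not computed. Whether ligands and receptors differ in how often they changed was not tested.

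**Figure D1:**
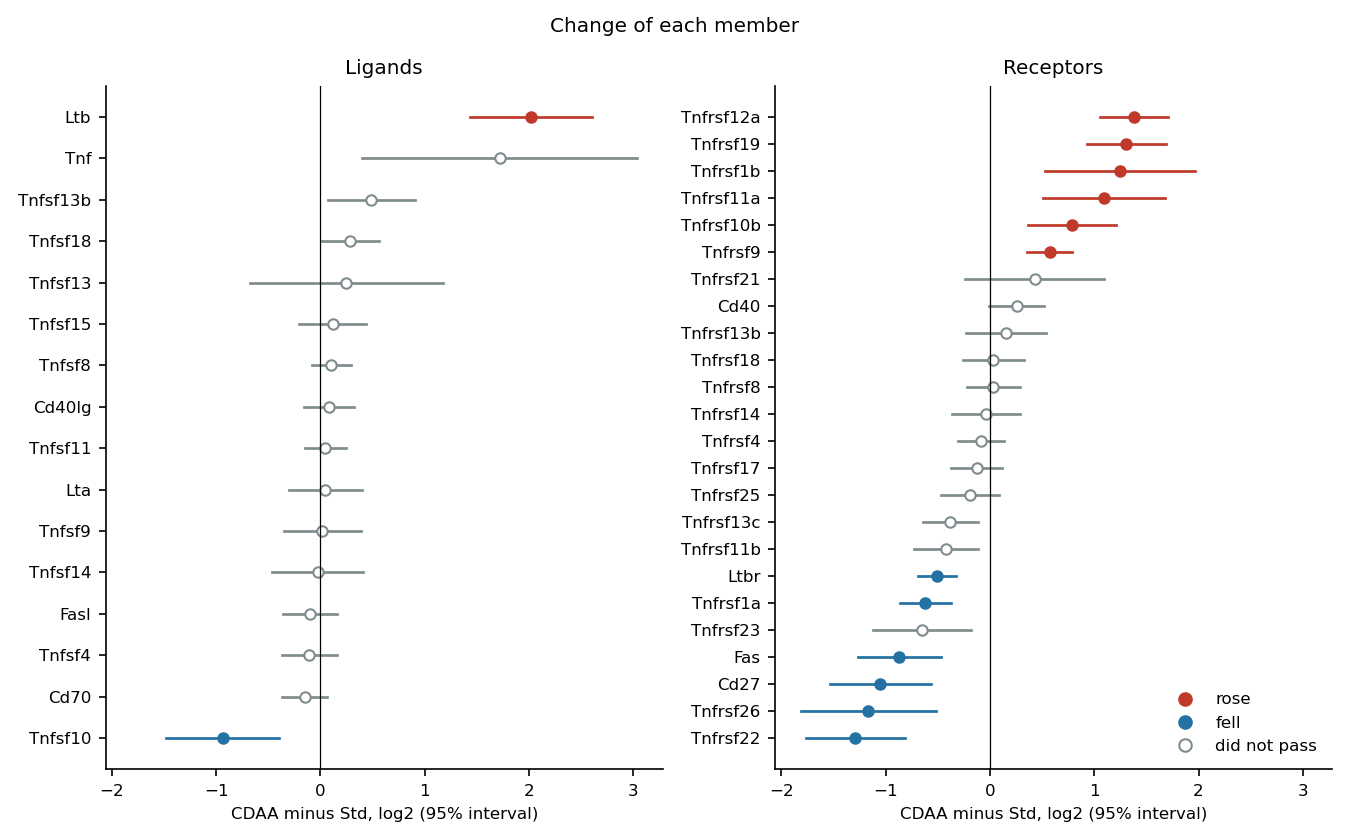
Change of the 16 ligands (left) and 24 receptors (right) in CDAA against Std, in log2 signal. Points are limma estimates, lines are 95% intervals, filled symbols passed the threshold. Changes run from 2.02 for Ltb to -1.29 for Tnfrsf22.

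Among the ligands of the TNF and lymphotoxin group, Ltb had the sharpest rise of all members. Ltb (probe set 16994_at) encodes lymphotoxin beta, the membrane anchor of the lymphotoxin trimer that signals through Ltbr. Its log2 signal was 7.91, 7.09, 8.004, 7.05 and 7.12 in CDAA 1 to CDAA 5. In Std 1 to Std 5 it was 5.23, 5.31, 6.24, 4.79 and 5.48. The groups did not overlap, Std 3 being the highest control array. Ltb rose by 2.02 ± 0.27 (SE, limma adjusted p = 0.000490), a 4.06-fold difference in signal. Ltb is known as a product of lymphocytes and of some myeloid cells. T cell markers (0 of 7 changed) had means of 3.93 to 4.46 in CDAA and 3.73 to 4.68 in Std, and B cell markers (0 of 7 changed) 4.07 to 4.35 and 3.97 to 4.29. For NK cells 2 of 7 markers rose, with list means of 4.68 to 5.59 in CDAA and 4.42 to 5.29 in Std. Recruited macrophage and monocyte means were 8.33 to 9.79 and 5.22 to 6.26. The part of these cells in the rise of Ltb was not tested.

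Tnf itself (21926_at), the founding ligand of the family, did not pass. Its log2 signal was 9.27, 6.37, 8.02, 5.75 and 6.00 in CDAA 1 to CDAA 5. The Std arrays stood at 5.87, 4.57, 6.26, 5.09 and 5.03. CDAA 1 and CDAA 3 were far above every Std array, whereas CDAA 4 and CDAA 5 lay within the Std range. The difference of 1.72 ± 0.61 (SE) had a limma adjusted p of 0.0758 and a 95% interval of 0.40 to 3.04. It was 0.67 without CDAA 1 and CDAA 3 (limma adjusted p = 0.255), and it passed without CDAA 4 (2.05, limma adjusted p = 0.0348). Over all alternatives its adjusted p ran from 0.0101, with the replicate number as a block, to 0.255.

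The other ligands of this group, Lta and Tnfsf14, differed by 0.05 and -0.03. Lta encodes lymphotoxin alpha, and Tnfsf14 encodes LIGHT, a ligand of Ltbr and Tnfrsf14. Signals of both were below the array median in every CDAA array, at 2.47 to 3.18 for Lta and 2.81 to 3.53 for Tnfsf14. Ltb, Tnf and Lta are direct neighbours in the RefSeq annotation of GRCm38.p6, so the 3 adjacent genes had differences of 2.02, 1.72 and 0.05.

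The 2 receptors of TNF moved in opposite directions. Tnfrsf1a (21937_at) encodes TNFR1, the widely expressed death domain receptor, and Tnfrsf1b (21938_at) encodes TNFR2, which lacks a death domain and is abundant on leukocytes. Tnfrsf1a had log2 signals of 9.77, 10.11, 9.58, 10.12 and 9.81 in CDAA 1 to CDAA 5. Its Std values were 10.55, 10.45, 10.46, 10.52 and 10.51. All CDAA arrays were below all Std arrays, with CDAA 3 the lowest. Tnfrsf1a fell by 0.62 ± 0.11 (SE, limma adjusted p = 0.00302), a signal 1.54-fold lower. Across the 18 alternative fits the change of Tnfrsf1a lay between -0.68 and -0.49 and passed in each.

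Tnfrsf1b had signals of 8.49, 7.42, 8.79, 6.90 and 7.41 in CDAA 1 to CDAA 5. In Std 1 to Std 5 the values were 6.24, 6.79, 6.96, 6.07 and 6.72. CDAA 1 and CDAA 3 were again highest, and CDAA 4 lay just below Std 3. Tnfrsf1b rose by 1.24 ± 0.33 (SE, limma adjusted p = 0.0225), 2.37-fold. It did not pass without CDAA 1 (1.07), Std 1 (1.17), Std 4 (1.12) or both CDAA 1 and CDAA 3 (0.68), with limma adjusted p of 0.0576, 0.0584, 0.0618 and 0.0741 (range over all alternatives 0.00626 to 0.0741).

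Ltbr (17000_at), the lymphotoxin beta receptor, fell while its ligand rose. Its signal was 8.33, 8.39, 8.15, 8.43 and 8.29 in CDAA 1 to CDAA 5. Std 1 to Std 5 gave 8.86, 8.78, 8.83, 8.88 and 8.80. The 2 groups were narrow and did not overlap. The fall of 0.51 ± 0.08 (SE, limma adjusted p = 0.00184) was 1.42-fold in signal and passed under all 18 alternatives, between -0.54 and -0.46. Tnfrsf14, the receptor HVEM, differed by -0.04, with 6.59 to 7.37 in CDAA and 6.84 to 7.14 in Std (95% interval of the difference -0.36 to 0.29).

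**Figure D2:**
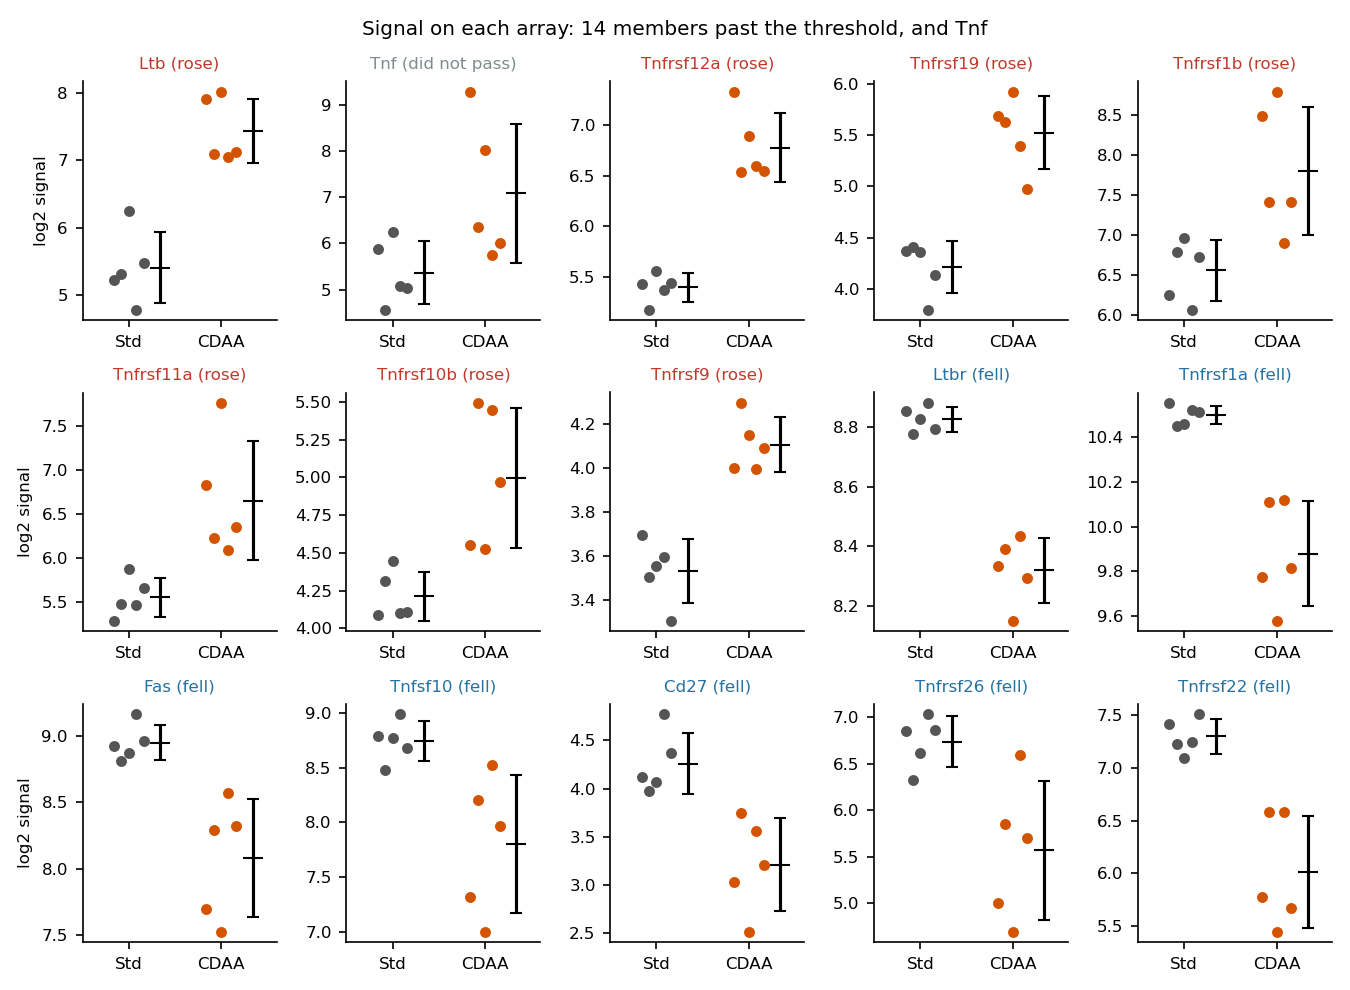
Log2 signal on each of the 5 Std and 5 CDAA arrays (points) with mean and SD (bars) for the 14 members past the threshold and Tnf; each panel has its own axis, which does not start at 0. For Ltb the CDAA arrays lie between 7.05 and 8.004, above every Std array, and for Tnfrsf1a between 9.58 and 10.12, below every Std array.

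Among the members tied to cell death, Fas and Tnfsf10 fell and Tnfrsf10b rose. Fas (14102_at), the receptor of Fas ligand, had signals of 7.69, 8.29, 7.53, 8.57 and 8.32 in CDAA 1 to CDAA 5. The Std pools had 8.93, 8.81, 8.87, 9.16 and 8.96. No CDAA array reached the Std range, and CDAA 1 and CDAA 3 were lowest. Fas fell by 0.87 ± 0.18 (SE, limma adjusted p = 0.00725), 1.82-fold, and by 0.55 without CDAA 1 and CDAA 3, where it still passed (limma adjusted p = 0.0125, range over all alternatives 0.00244 to 0.0233). Its ligand Fasl differed by -0.10, at 2.54 to 3.06 in CDAA and 2.68 to 3.07 in Std, below the array median.

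Tnfsf10 (22035_at) encodes TRAIL, and Tnfrsf10b (21933_at) its death receptor in the mouse. Tnfsf10 had signals of 7.32, 8.20, 7.001, 8.53 and 7.97 in CDAA 1 to CDAA 5. The values in Std 1 to Std 5 were 8.79, 8.48, 8.77, 8.99 and 8.67. Only CDAA 4 lay within the Std range. Tnfsf10 fell by 0.94 ± 0.25 (SE, limma adjusted p = 0.0227), but did not pass without CDAA 1 (-0.82), Std 1 (-0.92), Std 4 (-0.87) or both CDAA 1 and CDAA 3 (-0.51), with limma adjusted p of 0.0586, 0.0521, 0.0606 and 0.0574 (range over all alternatives 0.00508 to 0.0606).

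Tnfrsf10b went the other way. It had signals of 4.55, 5.49, 4.53, 5.45 and 4.97 in CDAA 1 to CDAA 5, against 4.09, 4.31, 4.44, 4.10 and 4.11 in Std 1 to Std 5. Here CDAA 2 and CDAA 4 were highest and CDAA 1 and CDAA 3 lowest, whereas those were the highest for Tnfrsf1b. Tnfrsf10b rose by 0.79 ± 0.19 (SE, limma adjusted p = 0.0152), 1.72-fold, and by 1.09 without CDAA 1 and CDAA 3.

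The 3 neighbouring genes Tnfrsf26, Tnfrsf22 and Tnfrsf23 are rodent members of the family, of which Tnfrsf22 and Tnfrsf23 are known as decoy receptors of TRAIL. They adjoin each other in the RefSeq annotation with no other coding gene between them. Their sequences are related, and whether the probe sets tell the transcripts apart was not tested. Tnfrsf22 (79202_at) had signals of 5.78, 6.58, 5.45, 6.59 and 5.67 in CDAA 1 to CDAA 5, and 7.42, 7.23, 7.10, 7.25 and 7.51 in Std 1 to Std 5. All CDAA arrays were lower. The fall of 1.29 ± 0.22 (SE, limma adjusted p = 0.00195), 2.44-fold, was the sharpest among the members.

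Tnfrsf26 (244237_at) had signals of 5.00, 5.85, 4.69, 6.59 and 5.70 in CDAA 1 to CDAA 5. Std 1 to Std 5 had 6.85, 6.33, 6.61, 7.03 and 6.86, so that only CDAA 4 overlapped the controls. Tnfrsf26 fell by 1.17 ± 0.30 (SE, limma adjusted p = 0.0183), but did not pass without Std 4 (-1.09, limma adjusted p = 0.0506) or without CDAA 1 and CDAA 3 (-0.69, limma adjusted p = 0.0710, range over all alternatives 0.00189 to 0.0710). Tnfrsf23 (79201_at) had signals of 6.14, 6.27, 5.21, 6.603 and 6.39 in CDAA 1 to CDAA 5 against 6.88, 6.72, 6.63, 6.68 and 6.97 in Std 1 to Std 5. Although no CDAA array reached the Std range, the difference of -0.65 ± 0.21 (SE) did not pass (limma adjusted p = 0.0579). CDAA 3 was the lowest array, and Tnfrsf23 passed without it (-0.42, limma adjusted p = 0.0345) or without CDAA 4 (-0.77, limma adjusted p = 0.0257). On all arrays it also passed with dim genes left out (limma adjusted p = 0.0386) and with array weights (-0.53, limma adjusted p = 0.0420), within a range of 0.0257 to 0.124 over all alternatives.

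The remaining death domain receptors did not pass. Tnfrsf21, or DR6, differed by 0.43, with 5.74 to 7.60 in CDAA and 5.62 to 6.63 in Std, and by -0.05 without CDAA 1 and CDAA 3. Tnfrsf25, or DR3, a receptor of T cells for Tnfsf15, differed by -0.19 at signals of 3.16 to 3.88 in both diets together.

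Of the 4 receptors tied to tissue remodelling, 3 rose (75%) and none fell, against 7.49% and 9.13% of all genes. All 4 had a mean over all arrays above the array median, and of such genes 13.0% rose and 16.8% fell. The group is small and was drawn from members chosen with earlier results known, and its share was not tested. Tnfrsf12a (27279_at), known as Fn14, is the receptor of TWEAK and is induced in injured epithelium and in progenitor cells. Its signal was 7.32, 6.54, 6.89, 6.595 and 6.55 in CDAA 1 to CDAA 5. Std 1 to Std 5 gave 5.43, 5.18, 5.56, 5.38 and 5.44. The gap between the groups was wider than the range within either diet. Tnfrsf12a rose by 1.38 ± 0.15 (SE, limma adjusted p = 0.000138), 2.60-fold, and passed under all 18 alternatives between 1.16 and 1.44.

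Tnfrsf19 (29820_at), or TROY, is a receptor known from epithelial and neural progenitors. Signals were 5.69, 5.63, 5.92, 5.398 and 4.98 in CDAA 1 to CDAA 5, and 4.37, 4.41, 4.36, 3.80 and 4.13 in Std 1 to Std 5. Every CDAA array exceeded every Std array, CDAA 5 by the smallest margin. Tnfrsf19 rose by 1.31 ± 0.18 (SE, limma adjusted p = 0.000498), 2.48-fold. Beside both receptors stand the cholangiocyte markers, whose mean was 7.05 to 7.83 in CDAA and 4.32 to 5.53 in Std, and the stellate cell and fibroblast markers, at 6.75 to 8.29 and 5.71 to 6.41. Their part in these rises was not tested.

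Tnfrsf11a (21934_at) encodes RANK, the receptor of RANKL on osteoclast precursors and other myeloid cells. Its signal was 6.83, 6.23, 7.75, 6.09 and 6.35 in CDAA 1 to CDAA 5. In Std 1 to Std 5 it was 5.29, 5.48, 5.87, 5.47 and 5.66. The groups did not overlap, and CDAA 3 was the highest array. Tnfrsf11a rose by 1.10 ± 0.27 (SE, limma adjusted p = 0.0150), 2.14-fold, and by 0.67 without CDAA 1 and CDAA 3 (limma adjusted p = 0.0126, range over all alternatives 0.00665 to 0.0419). Recruited macrophage and monocyte markers were also highest in CDAA 3 and CDAA 1, with means of 9.79 and 9.57 against 8.33 to 8.75 in the other CDAA arrays, and their part in the rise of Tnfrsf11a or Tnfrsf1b was not tested.

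Tnfsf11, the ligand RANKL, differed by 0.05, at 2.65 to 2.97 in CDAA and 2.70 to 2.84 in Std, below the array median. Tnfrsf11b (18383_at), the soluble decoy osteoprotegerin that binds RANKL, had signals of 4.04, 4.01, 3.82, 3.63 and 3.76 in CDAA 1 to CDAA 5. In Std 1 to Std 5 it had 4.53, 4.38, 3.87, 4.07 and 4.48. Std 3 lay within the CDAA range, and Std 4 just above it. Its difference of -0.42 ± 0.14 (SE) did not pass (limma adjusted p = 0.0638) but did without Std 3 (-0.52, limma adjusted p = 0.0194) and, on all arrays, with dim genes left out (limma adjusted p = 0.0417, range over all alternatives 0.0194 to 0.156).

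Costimulatory receptors of T cells and antigen-presenting cells mostly did not pass. Tnfrsf9 (21942_at), or 4-1BB, had signals of 4.00, 4.29, 4.15, 3.99 and 4.09 in CDAA 1 to CDAA 5, against 3.70, 3.51, 3.56, 3.60 and 3.31 in Std 1 to Std 5. Tnfrsf9 rose by 0.57 ± 0.10 (SE, limma adjusted p = 0.00249), 1.49-fold, with no overlap of the groups. The Std signals were all below the array median, so the fold is one of signal near background.

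Cd27 (21940_at), a receptor of T, B and NK cells, had signals of 3.03, 3.74, 2.52, 3.56 and 3.21 in CDAA 1 to CDAA 5. The Std arrays had 4.12, 3.98, 4.07, 4.77 and 4.37. Every CDAA array was below the array median and every Std array above it. Cd27 fell by 1.05 ± 0.22 (SE, limma adjusted p = 0.00709), 2.07-fold. None of the 7 T cell, 7 B cell or 7 NK cell markers fell, but several T and B cell markers lay below the array median on average. The part of these cells in the fall of Cd27 was not tested. Its ligand Cd70 differed by -0.15, at 2.20 to 2.54 in CDAA and 2.30 to 2.67 in Std.

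Cd40 (21939_at), the receptor through which T cells activate macrophages, B cells and endothelium, did not pass. It had signals of 4.95, 4.44, 4.89, 4.97 and 5.03 in CDAA 1 to CDAA 5, against 4.63, 4.51, 4.43, 4.69 and 4.73 in Std 1 to Std 5. CDAA 2 lay within the Std range and the other CDAA arrays above it. The difference of 0.26 ± 0.12 (SE) had a limma adjusted p of 0.189, and without CDAA 2 it was 0.36 and passed (limma adjusted p = 0.0283, range over all alternatives 0.0283 to 0.431). Tnfrsf18 (GITR), Tnfrsf8 (CD30) and Tnfrsf4 (OX40) differed by 0.03, 0.03 and -0.08. The costimulatory ligands Tnfsf18, Tnfsf15, Tnfsf8, Cd40lg, Tnfsf9, Tnfsf4 and Cd70 differed by -0.15 to 0.28, and none of the 7 passed, with 1 at an unadjusted p under 0.05.

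The B cell survival group had no member past the threshold. Its ligands are Tnfsf13b (BAFF) and Tnfsf13 (APRIL), and its receptors are Tnfrsf13c, Tnfrsf13b and Tnfrsf17 (BCMA). Tnfsf13b, at 4.67 to 5.68 in CDAA and 4.44 to 5.19 in Std, differed by 0.49 ± 0.19 (SE, limma adjusted p = 0.111), and passed without CDAA 4 (0.63, limma adjusted p = 0.0266, range over all alternatives 0.0266 to 0.413). Tnfsf13 varied widely within CDAA, from 3.33 in CDAA 5 to 6.09 in CDAA 3, and differed by 0.25. The BAFF receptor Tnfrsf13c had 4.56 to 4.86 in CDAA and 4.72 to 5.32 in Std, a difference of -0.38 ± 0.12 (SE, limma adjusted p = 0.0520). Std 3 was its only Std array within the CDAA range, and without Std 3 it passed (-0.48, limma adjusted p = 0.00745). On all arrays it also passed with dim genes left out (limma adjusted p = 0.0338) and with array weights (-0.40, limma adjusted p = 0.0251), within a range of 0.00745 to 0.120 over all alternatives. Tnfrsf13b and Tnfrsf17 differed by 0.15 and -0.13, with mean signals of 2.50 to 2.78 in either diet.

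Ligands and receptors that bind each other are set side by side here. Of 16 ligands only Ltb and Tnfsf10 passed, which limited how many pairs could pass together. Of the listed textbook pairs with both partners measured, both passed in 2, each in opposite directions. These were Ltb (2.02) with Ltbr (-0.51), and Tnfsf10 (-0.94) with Tnfrsf10b (0.79). The list did not pair Tnfsf10 with the decoy receptors Tnfrsf22 and Tnfrsf23. Tnfrsf22 fell, as Tnfsf10 did (-1.29), and Tnfrsf23 did not pass (-0.65). In the pairs Tnf and Tnfrsf1a, Tnf and Tnfrsf1b, Tnfsf14 and Ltbr, Fasl and Fas, Cd70 and Cd27, Tnfsf9 and Tnfrsf9, and Tnfsf11 and Tnfrsf11a, the receptor passed and the ligand did not. A ligand that did not pass was in most of these cases at a signal below the array median, Tnf and Tnfsf9 being above it on average.

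**Figure D3:**
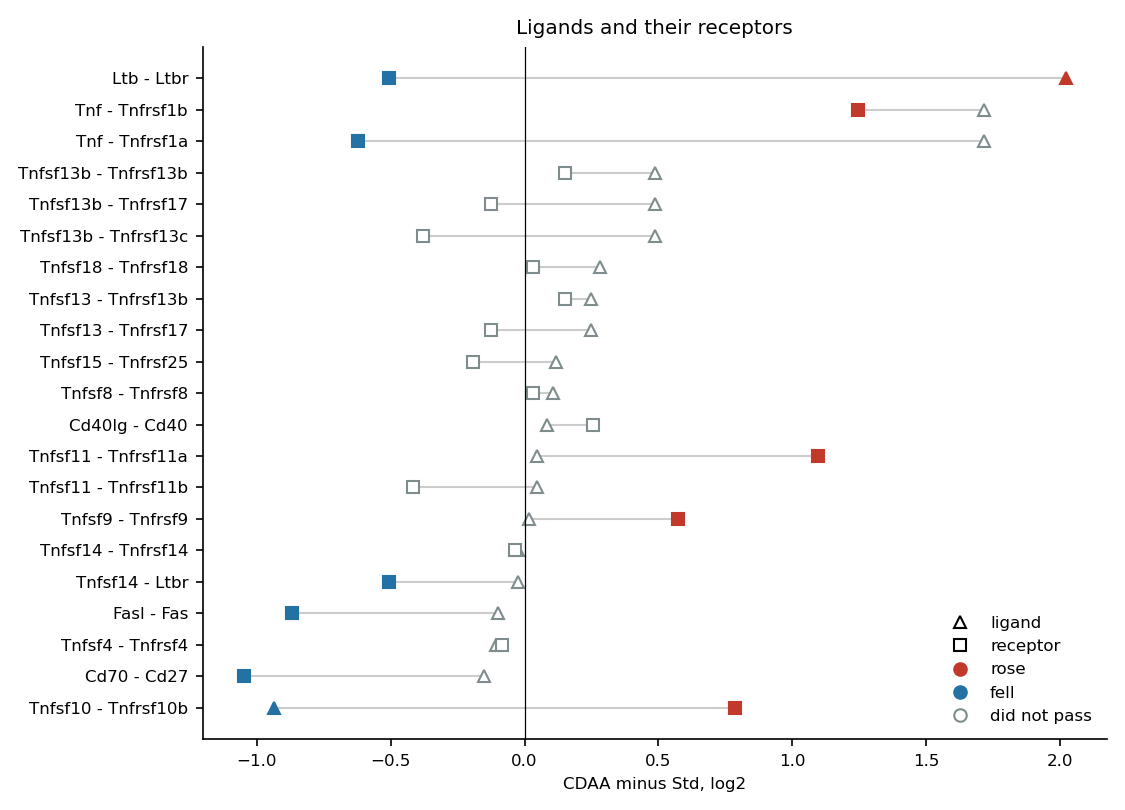
CDAA minus Std difference in log2 signal of each ligand (triangle) and receptor (square) of a listed pair, joined by a line. Filled symbols passed the threshold. Tnfrsf12a is left out for want of its ligand, and the decoy receptors Tnfrsf22 and Tnfrsf23 were not in the list. Ltb and Ltbr lie at 2.02 and -0.51, Tnfsf10 and Tnfrsf10b at -0.94 and 0.79.

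The falling members ordered the CDAA arrays alike. CDAA 3 was the lowest CDAA array for all 7, and CDAA 4 the highest for 6 of 7, the other being Cd27. The pan-endothelial and LSEC means had the same extremes, with 10.23 and 10.26 in CDAA 3 and 11.31 and 11.26 in CDAA 4. Across the 10 pan-endothelial markers the median difference was -0.65 and across the 10 LSEC markers -0.86. Those of the falling members were -0.51 (Ltbr), -0.62 (Tnfrsf1a), -0.87 (Fas), -0.94 (Tnfsf10), -1.05 (Cd27), -1.17 (Tnfrsf26) and -1.29 (Tnfrsf22). The part of a lower endothelial signal in these falls was not tested. Among the 7 rising members CDAA 3 was highest for 4, CDAA 2 for 2 and CDAA 1 for 1, and CDAA 4 was lowest for 4. Kupffer cell means were 8.09 to 9.05 in CDAA and 8.55 to 9.67 in Std, with 4 of 8 markers fallen, and dendritic cell means 4.35 to 5.11 and 4.16 to 4.43, with 1 of 8 fallen. Plasma cell markers, of which 3 of 6 rose, had means of 5.599 to 6.08 and 5.10 to 5.50, and hepatocyte markers, of which 3 of 7 rose and 2 fell, 7.16 to 8.10 and 6.98 to 7.62. The neutrophil mean was 9.90 in Std 3, 4.30 to 4.75 in the other Std arrays and 5.89 to 6.76 in CDAA, and none of the 6 neutrophil markers passed. Std 3 was also the highest Std array for Ltb, Tnf, Tnfrsf1b, Tnfrsf11a, Tnfrsf12a and Tnfrsf10b.

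**Figure D4:**
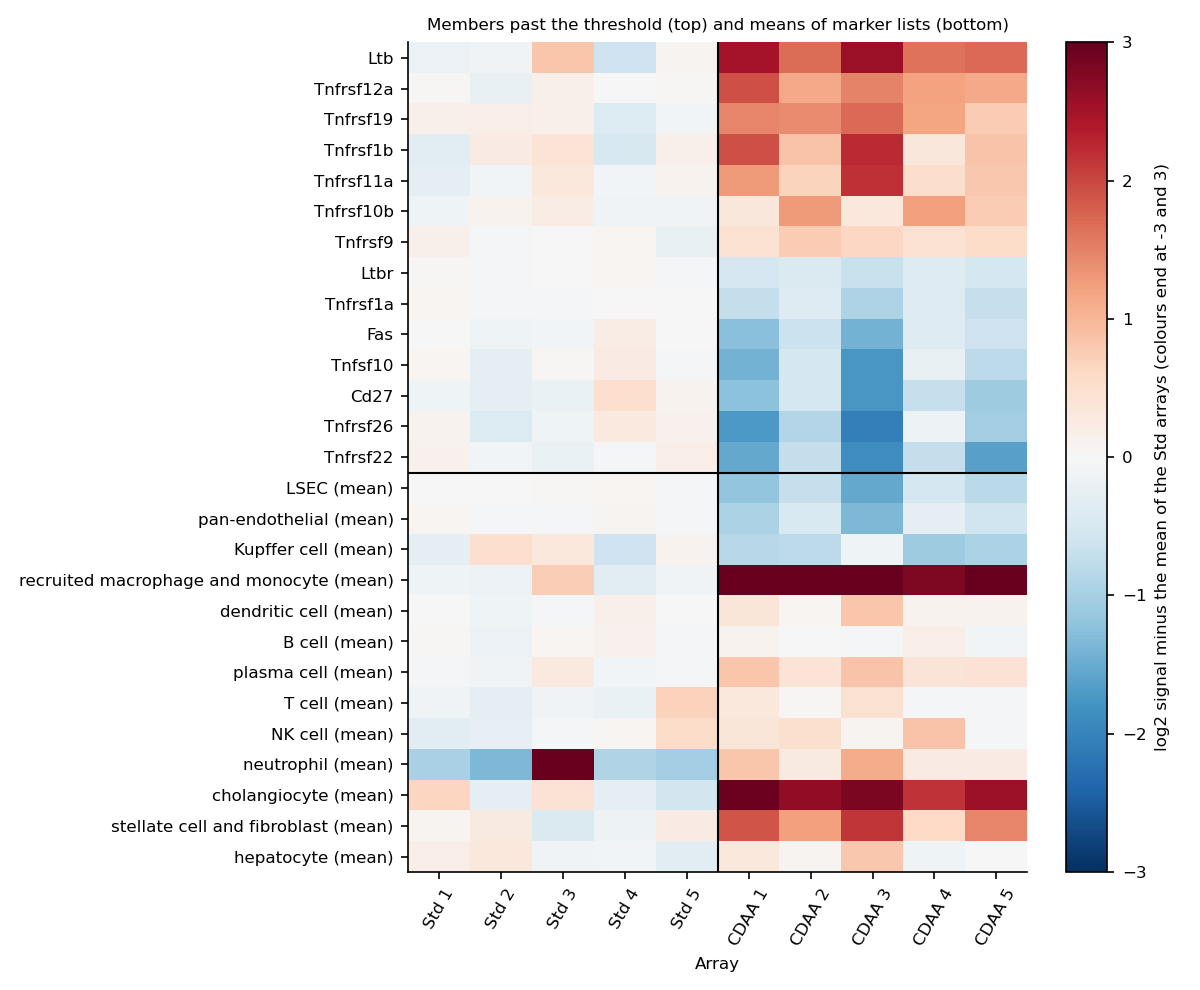
Log2 signal of each array minus the mean of the Std arrays, for the 14 members past the threshold (above the line) and for means of marker lists (below it), with colours ending at -3 and 3. CDAA 3 has the deepest falls of the members, of the LSEC mean (10.26) and of the pan-endothelial mean (10.23), and Std 3 stands apart in the neutrophil mean (9.90).

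By position in the genome, 21 of the 40 members lay in 8 groups of neighbours with at most 5 coding genes between adjacent members. In 2 of these groups several members fell. Cd27, Ltbr and Tnfrsf1a follow one another with 1 coding gene between each, Tuba3a and Scnn1a. Scnn1a, a sodium channel subunit, fell by 0.70 ± 0.16 (SE, limma adjusted p = 0.0115), from 4.43 to 3.73, and Tuba3a differed by -0.09 (limma adjusted p = 0.806). The other group is that of Tnfrsf26, Tnfrsf22 and Tnfrsf23, described above. Both were noticed after the values were seen, and their genes are named for that reason.

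Downstream of the receptors, genes of the signalling pathway moved in both directions. Of 26 measured adaptors and proximal signalling genes, 6 rose (23.1%) and 3 fell (11.5%), against 7.49% and 9.13% of all genes. The median difference was 0.06 against -0.02. All 26 had a mean over all arrays above the array median, and of such genes 13.0% rose and 16.8% fell. The share that fell was near that of all genes and below that of genes above the array median. Tnfaip3, the ubiquitin-editing inhibitor A20, rose by 1.29 ± 0.40 (SE, limma adjusted p = 0.0453), and Traf4, an adaptor prominent in epithelia, by 1.05 ± 0.13 (limma adjusted p = 0.000336). The genes that fell were Casp8, the initiator caspase of death receptors, by 0.69 ± 0.15 (limma adjusted p = 0.00864), Rnf31, the catalytic subunit of the linear ubiquitin ligase, by 0.69 ± 0.17 (limma adjusted p = 0.0142), and Cflar, the caspase-8 regulator FLIP, by 0.58. Whichever single array was left out, only 1 to 4 rose, with the lowest count without Std 4 or Std 5, and 6 fell without CDAA 2 or CDAA 4. Without CDAA 1 and CDAA 3, 2 rose and 1 fell.

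NF-kB genes that passed all rose, 3 of 12 (25% against 7.49% of all genes), with a list median of 0.24. All 12 had a mean over all arrays above the array median, and of such genes 13.0% rose. Nfkbia, the inhibitor IkB-alpha and itself an NF-kB target, rose by 0.58 ± 0.18 (SE, limma adjusted p = 0.0490), Relb by 0.53 ± 0.12 (limma adjusted p = 0.00982) and Nfkb2 by 0.40 ± 0.10 (limma adjusted p = 0.0141). Relb and Nfkb2 encode the dimer of the alternative pathway that Ltbr and Tnfrsf11a, among others, are known to engage. None of the 12 passed without CDAA 1 and CDAA 3, where 3 arrays remained in CDAA. The kinase of that pathway, Map3k14, differed by -0.12.

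Shedding releases ligands and receptors from the membrane. Among its 7 genes, 2 rose (28.6%) and 1 fell (14.3%), against 7.49% and 9.13% of all genes (list median 0.15). All 7 had a mean over all arrays above the array median, and of such genes 13.0% rose and 16.8% fell. The metalloproteinase inhibitor Timp1 rose by 1.63 ± 0.13 (SE, limma adjusted p = 2.30e-05), and Timp3, which inhibits the TNF sheddase, fell by 1.03 ± 0.14 (limma adjusted p = 0.000552). In Std the signal of Timp1, 3.24 to 3.82, was below the array median on every array, so its rise is measured against signal near background. Rhbdf1, a partner of that sheddase, rose by 0.42 ± 0.09 (limma adjusted p = 0.00963). The sheddase Adam17 itself, at 8.55 in CDAA and 8.27 in Std on average, stayed short of the threshold with a difference of 0.27 (limma adjusted p = 0.0959).

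Endothelial genes inducible by TNF rose in 11 of 20 cases (55%) and fell in 1 (5%), against 7.49% and 9.13% of all genes. The list median was 0.57. Most of the list had a mean over all arrays above the array median, and of such genes 13.0% rose and 16.8% fell. The neutrophil chemokine Cxcl2 rose by 3.68 ± 0.77 (SE, limma adjusted p = 0.00692). The diets overlapped for Cxcl2, at 7.27 to 9.87 in CDAA and 3.45 to 7.99 in Std, which reached below the array median. The monocyte chemokine Ccl2 rose by 1.66, E-selectin, Sele, by 1.40 ± 0.31 (limma adjusted p = 0.00929), and Tnfaip3 as above. Csf1, the macrophage growth factor, was the member that fell, by 0.99 ± 0.16 (limma adjusted p = 0.00139). Macrophages also express several of these genes. The count was 4 without CDAA 1 and CDAA 3, and 4 to 10 over the fits that left out 1 array, with 4 without CDAA 1 or Std 4 and 5 without Std 1 or Std 5. It was 6 without CDAA 3 or Std 2 and 7 without CDAA 5. Nfkbia, Tnfaip3, Birc3 and Traf1 are in 2 of the pathway lists and are counted in each.

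Family members whose symbols fall outside the rule gave 0 rises and 2 falls (28.6%) among 7 genes, against 7.49% and 9.13% of all genes (list median -0.26). Eda2r, a receptor of ectodysplasin A2, fell by 0.54 ± 0.17 (SE, limma adjusted p = 0.0451) and Rell1, a relative of the receptor RELT, by 0.43 ± 0.13 (limma adjusted p = 0.0361). Neither passed without CDAA 1, without any 1 of the 5 Std arrays, or without CDAA 1 and CDAA 3, and 1 of them passed without CDAA 2, CDAA 3 or CDAA 4.

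**Figure D5:**
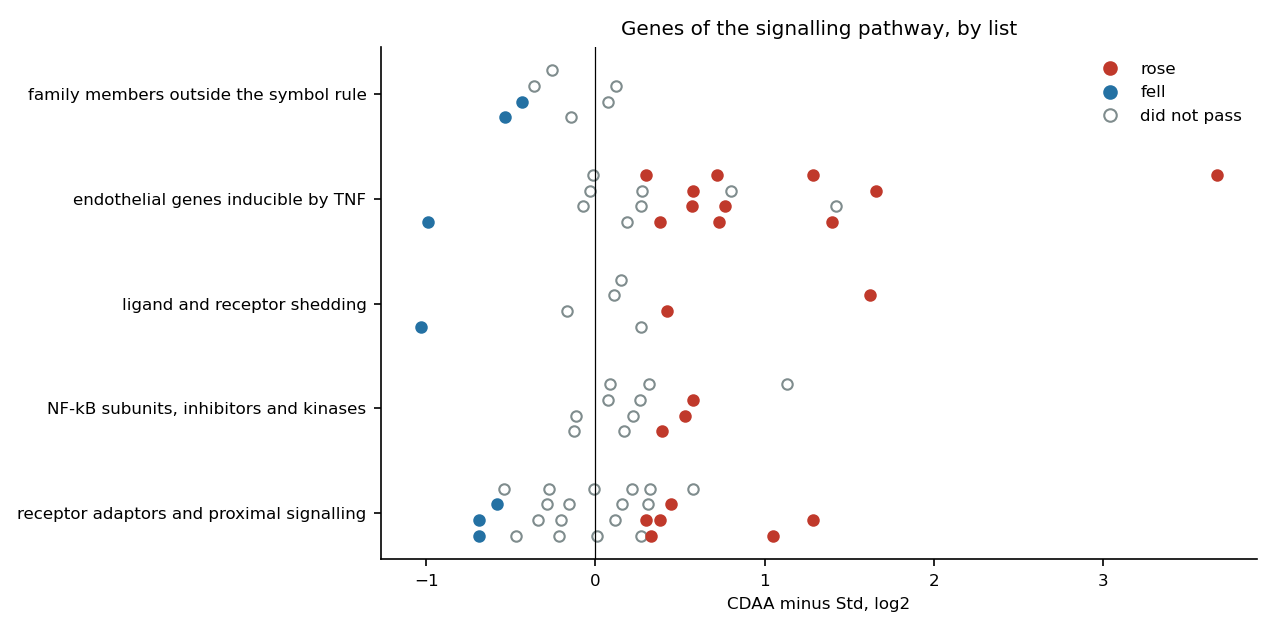
CDAA minus Std difference in log2 signal of each measured gene of 5 pathway lists; filled symbols passed the threshold and the vertical spread within a list has no meaning. Cxcl2 lies farthest to the right at 3.68, and Timp3 and Csf1 farthest to the left at -1.03 and -0.99.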

How the data were processed

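RNA of bead-isolated cells, pooled from 3 mice per array, was hybridised as biotin-labelled cRNA. The authors deposited log2 values from RMA, per the submitters' processing notes (version not given in the sources used here). That method removes background, gives all arrays 1 distribution and can compress differences of dim probe sets. Scanner files were not analysed here. Of 25428 probe sets, 24705 had 1 symbol in the platform annotation, 0 several and 723 none; for 1 gene with more than 1 probe set the one with the highest mean was kept, giving 24704 genes.

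A 2-group model over all 10 arrays (limma 3.58.1, lmFit and eBayes, under R 4.3.3) gave the CDAA minus Std difference, with two-sided p-values adjusted by Benjamini-Hochberg. The spread behind each p-value is that between pools of mice. On simulated data of 24704 genes with 200 changed, 5% of changes of 0.5, 92% of 1 and 98% of 2 were recovered, with 1, 11 and 4 false calls. The simulated noise was independent between genes and equal in both diets. In the real comparison 4106 genes (16.6%) passed, which makes the adjustment less strict. The recovered shares therefore do not carry over to it, and some differences under 0.5 passed, such as Nfkb2 at 0.40.

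The 18 alternatives added the replicate number as a block, repeated quantile normalization, median centring, no dim genes, a variance trend, array weights, the mean of probe sets, and left out each array or both CDAA 1 and CDAA 3. The members and lists were chosen with earlier results of these data known. By rule, members past the threshold and Tnf, Tnfrsf1a, Tnfrsf1b, Ltbr, Fas, Tnfrsf11b, Tnfsf10 and Cd40 are given on each array, and of each pathway list up to 4 genes past the threshold with the largest change. Tnfrsf23, Cflar, Csf1, Map3k14, Adam17, Scnn1a and Tuba3a were named after their values were seen. Pathway and marker list genes without a named probe set were not analysed here. Array number limits the precision.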

Additional observations from a re-analysis of the deposited data

Results flagged for a closer look

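In 7 of 80 groups of 5 arrays (40 members in 2 diets), the extreme array lay apart from the other 4 by more than 0.71 of the whole range, the limit of Dixon's test at this size. Chance flags about 1 group in 20. The lowest CDAA array stood apart for Cd40 (CDAA 2 at 4.44, the next at 4.89), for Lta (CDAA 5 at 2.47, the next at 3.14) and for Tnfrsf13c (CDAA 5 at 4.56, the next at 4.77). Cd40lg had 1 high CDAA array (CDAA 3 at 2.92, the next at 2.54). Among the Std arrays, Std 3 was high for Tnfrsf13b (3.08, the next at 2.56) and low for Tnfrsf13c (4.72, the next at 5.15), and Std 1 was high for Tnfrsf8 (3.32, the next at 2.95). Lta, Cd40lg, Tnfrsf13b and Tnfrsf8 had signals below the array median of 3.89 on all arrays. None of the 6 genes passed the comparison of the diets.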

How the results depend on the processing

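Of the 14 members that changed, 11 kept their call and direction under every alternative that held them; the exceptions are Tnfrsf1b, Tnfsf10 and Tnfrsf26, given with their values in the report. The counts of members that rose and fell stayed within 1.5 times of 7 and 7 in all 18 other fits. Over all genes, 1307 fell without CDAA 1 and CDAA 3 against 2255.

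The labels do not tie replicate numbers to shared litters or days, so the numbers were not taken as pairs. Deviations of same-numbered arrays correlated at 0.0611 to 0.399 over the 2000 most variable genes. Of 5 CDAA arrays, 3 were closest to their own number. Whether same-numbered arrays were handled together was not tested. With the replicate number as a block, 8 members rose and 9 fell, Tnf, Tnfrsf11b and Tnfrsf23 passing at 1.72, -0.42 and -0.65 (limma adjusted p of 0.0101, 0.0395 and 0.0351), and 1 family member outside the symbol rule fell.

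Pathway counts moved more. Risen adaptors numbered 3 with the variance trend, 2 without CDAA 1 and CDAA 3 and 1 to 4 when 1 array was left out. Fallen adaptors numbered 6 without dim genes, 5 with the variance trend, 1 without CDAA 1 and CDAA 3 and 3 to 6 with 1 array left out. Without CDAA 1 and CDAA 3, 0 NF-kB genes, 1 shedding gene and 4 genes inducible by TNF rose and 0 family members outside the rule fell. With 1 array left out, 4 to 10 genes inducible by TNF rose and 0 to 2 family members outside the rule fell; these were 1 with the variance trend and 1 with array weights. The cause of these shifts was not tested. Fits that left out arrays or genes also rested on fewer of them.

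Estimates that changed sign all belonged to members that did not pass. Without CDAA 1 and CDAA 3 they were Cd40lg (-0.024), Lta (-0.035), Tnfrsf13b (-0.054), Tnfrsf18 (-0.050), Tnfrsf21 (-0.054), Tnfrsf4 (0.018), Tnfsf13 (-0.28) and Tnfsf9 (-0.053), and with array weights Tnfrsf18 (-0.012) and Tnfsf9 (-0.017). With 1 array left out, changes ran from -0.0037 to 0.12 for Cd40lg, -0.026 to 0.18 for Lta, -0.15 to 0.051 for Tnfrsf14, -0.039 to 0.11 for Tnfrsf18, -0.016 to 0.12 for Tnfrsf8, -0.093 to 0.60 for Tnfsf13, -0.13 to 0.15 for Tnfsf14 and -0.094 to 0.12 for Tnfsf9.

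No scaling moved the median of all genes by more than 0.1. Arrays of 5 per diet and signals near background limit what can be told of the 17 members at or below the array median.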
